A study of Mus musculus with 5 samples.

Results

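The genes described here mark the filtering units of the kidney. They are Cubn, Lrp2 and Slc34a1 of the proximal tubule, Umod and Slc12a1 of the thick ascending limb, and Nphs1 and Wt1 of the podocyte. They were chosen by name as 7 genes out of the 12393 genes named on the array, and all 7 had at least 1 probe set annotated to no other gene. A probe set is a group of short probes that together report 1 transcript. Both probe sets of Umod were taken, and for each other gene the one with the highest mean signal over the arrays, which gave 8 probe sets out of 22626 tested. The 3 dimmer probe sets of Cubn, Lrp2 and Slc12a1 are given beside them.

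Every array held RNA of C57BL/6 mice, a laboratory strain. One pool came from the colons of adult mice aged 8 weeks and the other from whole mice aged 1 day, several animals to each pool. The pools were combined at colon shares of 0%, 25%, 50%, 75% and 100% of total RNA, and each of the 5 mixes was amplified from 10 ng in 2 rounds and hybridised to 1 Affymetrix mouse array. No mix had a replicate, tissue and age differ together between the pools, and kidney enters only as part of the whole newborn, so the precision is limited by the number of arrays and no spread between mice can be given.

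In the kidney, blood is filtered at the glomerulus, whose outer layer is made of podocytes joined by slit diaphragms that hold nephrin. The proximal tubule then takes back protein, vitamins and phosphate, and the thick ascending limb takes back salt. Newborn mouse kidneys are still forming nephrons. Several of these genes are also used elsewhere: cubilin in the ileum, megalin in lung, thyroid and the embryo's neural epithelium, and Wt1 in gonad and mesothelium.

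Signals are the deposited log2 values, on which 1 unit is a doubling, and "slope" below is the change per full replacement of whole mouse RNA by colon RNA, in log2, of a straight line through the 5 arrays. A gene "fell" or "rose" where the slope passed limma's test at a Benjamini-Hochberg adjusted p of 0.05 over all probe sets. Values along the dilution run from 0% to 100% colon, in steps of 25%. The array medians lay between 6.83 and 6.92. The 27 control probe sets for Bacillus transcripts, which have no mouse gene, lay between 2.65 and 5.23 and give a sense of the dimmest signals. In a whole-tissue RNA, fewer cells of a type and less RNA per cell cannot be told apart.

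Cubn, Slc34a1 and 1 probe set of Umod fell with rising colon share, while the brighter probe sets of Lrp2 and Slc12a1 and both podocyte genes did not pass the test. Of the 8 probe sets, 3 fell (Cubn, Slc34a1 and 1 of the 2 for Umod) and 0 rose. Over the whole array 10.9% of probe sets fell and 8.63% rose. The median slope of the 8 was -0.52 log2, beside 0.02 over all probe sets tested. Most of these genes were dim: 6 of the 8 lay under the array median on each of the 5 arrays. Of the probe sets whose mean signal was under the median of all means, 5.74% fell, and of the 6 members among them 1 did (Umod). Between the undiluted arrays, 2 of the 8 (Cubn and Umod) were at least 2-fold lower in colon, as were 7.79% of all probe sets. None of the 8 was at least 2-fold higher there, against 8.19% of all probe sets.

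**Figure D1:**
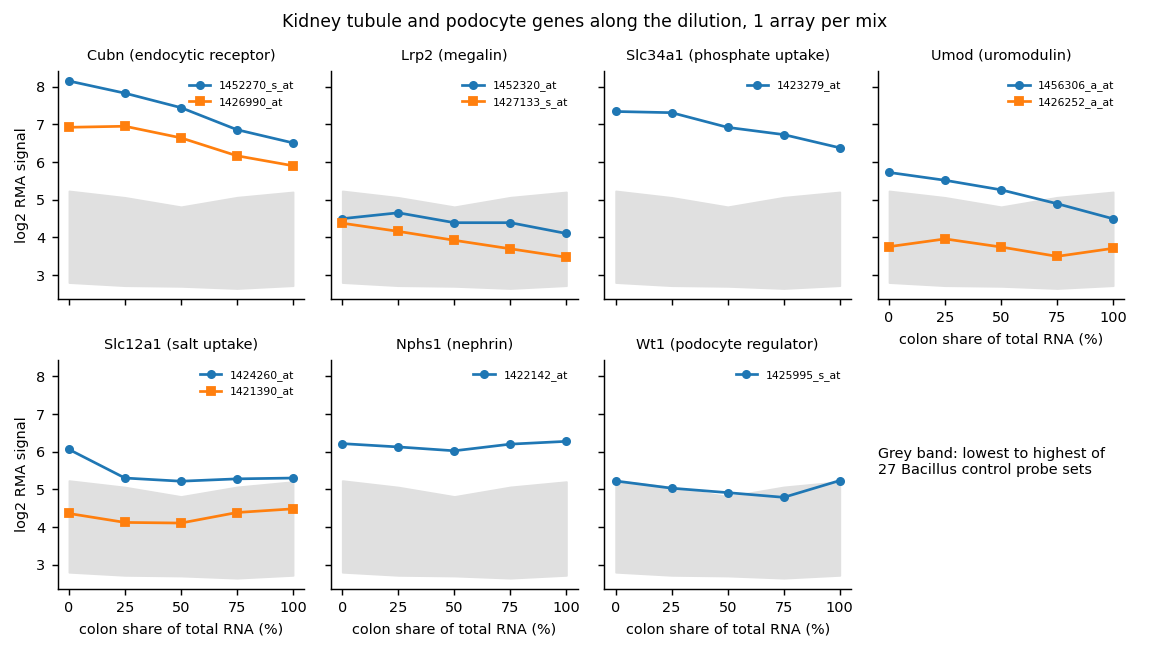
Log2 signal (vertical axis) of each gene's probe sets against the colon share of total RNA in percent (horizontal axis), 1 point per array; the grey band spans the 27 Bacillus control probe sets on each array. Cubn and Slc34a1 descend above the band, Umod 1456306_a_at enters it at 75% colon, both Lrp2 probe sets lie inside it throughout, and Nphs1 stays level above it.

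The promoter windows of the genes that fell are shown because these genes share a direction along the dilution and because the factors searched for below act in kidney epithelium. Each window runs from 250 bases before to 50 bases after the annotated start of transcription, in RefSeq's annotation of GRCm38.p6. RefSeq windows were matched for 6 of the 7 genes by symbol, Wt1 being the gene without one. The windows shown are those of Slc34a1 (chr13:55399398-55399697, plus strand), Umod (chr7:119479213-119479512, minus strand) and Cubn (chr2:13491827-13492126, minus strand). Capitals mark matches to 4 short motifs searched on both strands: GTTAAT, the core of the HNF1 site; CAAAGTC, of HNF4; GTGGGAG, of WT1; and TATAAA, the TATA box.
Slc34a1: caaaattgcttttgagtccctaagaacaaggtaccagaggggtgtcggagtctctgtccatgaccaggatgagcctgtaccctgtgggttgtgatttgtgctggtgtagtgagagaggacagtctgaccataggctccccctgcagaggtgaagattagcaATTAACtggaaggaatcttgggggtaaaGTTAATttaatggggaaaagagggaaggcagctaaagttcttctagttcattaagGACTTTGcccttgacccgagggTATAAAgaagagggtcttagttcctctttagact
Umod: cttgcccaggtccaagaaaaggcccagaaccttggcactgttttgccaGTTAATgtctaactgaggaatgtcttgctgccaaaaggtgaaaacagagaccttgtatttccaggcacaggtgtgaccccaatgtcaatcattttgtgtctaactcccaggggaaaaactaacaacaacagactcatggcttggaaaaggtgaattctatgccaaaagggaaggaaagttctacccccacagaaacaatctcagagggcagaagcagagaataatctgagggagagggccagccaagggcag
Cubn: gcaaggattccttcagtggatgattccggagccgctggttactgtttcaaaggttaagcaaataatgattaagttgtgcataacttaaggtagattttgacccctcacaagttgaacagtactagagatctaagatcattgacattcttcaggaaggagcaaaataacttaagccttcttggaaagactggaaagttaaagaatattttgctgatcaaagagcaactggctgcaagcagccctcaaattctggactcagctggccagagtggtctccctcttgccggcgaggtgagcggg
The Slc34a1 window held 2 HNF1 cores, which start 89 and 61 bases before the start of transcription, 1 match to the HNF4 motif on the opposite strand, and 1 TATA box motif that begins 17 bases into the transcript. The Umod window held 1 HNF1 core, which starts 202 bases before it. The Cubn window held none of the 4 motifs, nor did those of Lrp2, Slc12a1 and Nphs1. Of 32851 promoter windows of this length, 7.10% held the HNF1 core, 4.44% the HNF4 motif, 9.73% the WT1 motif and 13.6% the TATA box motif. No 2 of the matches overlapped. These are matches of letters and show no binding.

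Cubn, the receptor that takes up vitamin B12 bound to intrinsic factor, albumin and other filtered proteins, had the steepest slope of the 7 genes. Its brighter probe set, 1452270_s_at, had log2 signals of 8.15, 7.83, 7.44, 6.86 and 6.51 from 0% to 100% colon. Each step of the dilution was lower than the one before, and the whole mouse array was the highest. Its slope was -1.70 log2 (SE 0.12, 95% interval -2.01 to -1.40, limma adjusted p = 0.0042). On the linear scale its signal was 91.0 in colon and 284 in whole mouse, 3.12-fold apart. It ranked at the 44.1st percentile of the colon array and at the 70.7th of the whole mouse array.

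The dimmer Cubn probe set, 1426990_at, gave 6.92, 6.95, 6.64, 6.17 and 5.90. Its first 2 arrays were level and the decline began at 50% colon. It too fell, with a slope of -1.13 log2 (SE 0.18, limma adjusted p = 0.0182). Without the 75% mixture its adjusted p was 0.0722, and without the colon array it was 0.124. The colon signals of both probe sets were above the highest Bacillus control on that array, 5.21.

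Lrp2 encodes megalin, the large endocytic receptor that works beside cubilin, and it was at the level of the controls. Its brighter probe set, 1452320_at, had 4.50, 4.65, 4.39, 4.39 and 4.11 from 0% to 100% colon. The 25% mixture was the highest, and the 50% and 75% mixtures held the same value. The slope was -0.42 log2 (SE 0.16, 95% interval -0.82 to -0.02) and missed the threshold (limma adjusted p = 0.132).

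The dimmer Lrp2 probe set, 1427133_s_at, had 4.38, 4.16, 3.92, 3.70 and 3.47, in strict order. It fell with a slope of -0.91 log2 (SE 0.09, limma adjusted p = 0.00711), and the adjusted p was 0.052 without the colon array and 0.0995 when linear signals were fitted. Both probe sets lay inside the range of the Bacillus controls on all 5 arrays, between the 3.58th and the 14.7th percentile. When the probe sets of each gene were averaged, Lrp2 had a slope of -0.66 log2 and an adjusted p of 0.0161, so its call rested on which probe sets represented it.

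Slc34a1 is the sodium-phosphate cotransporter of the proximal tubule brush border, which takes back filtered phosphate. Its probe set, 1423279_at, had log2 signals of 7.34, 7.31, 6.92, 6.73 and 6.38. The values were in strict order, although the 25% mixture lay close to undiluted whole mouse. The slope was -1.003 log2 (SE 0.13, 95% interval -1.35 to -0.66, limma adjusted p = 0.0125). Its linear signal was 83.2 in colon and 162 in whole mouse, 1.95-fold apart. It no longer passed without the colon array (slope -0.89, adjusted p = 0.0913) or without the 75% mixture (slope -1.03, adjusted p = 0.0538).

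Umod, or uromodulin, is the main protein of normal urine and is made by cells of the thick ascending limb. Probe set 1456306_a_at had 5.72, 5.52, 5.26, 4.90 and 4.50 from 0% to 100% colon. Every step was lower than the one before, and the last 2 values lay inside the range of the Bacillus controls. It fell with a slope of -1.23 log2 (SE 0.12, 95% interval -1.54 to -0.93, limma adjusted p = 0.00675). Without the colon array the slope was -1.10 and the adjusted p 0.0505.

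The other Umod probe set, 1426252_a_at, had 3.76, 3.96, 3.75, 3.50 and 3.71. All were inside the range of the controls and no higher than the 7.61st percentile of an array, with the highest signal at 25% colon and the lowest at 75%. Its slope was -0.22 log2 (SE 0.18, 95% interval -0.69 to 0.25, limma adjusted p = 0.476). The intervals of the 2 Umod probe sets did not overlap. The mean of both gave a slope of -0.73 log2 (adjusted p = 0.0174), so uromodulin was lower in colon by one probe set and by the mean, and not by the other.

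Slc12a1 is the salt cotransporter of the thick ascending limb and the target of loop diuretics. Its brighter probe set, 1424260_at, had 6.06, 5.30, 5.22, 5.28 and 5.30. Whole mouse stood above the other arrays, which spanned less than 0.1 log2 and of which the 25% mixture and colon held the same value. The slope was -0.62 log2 (SE 0.30, 95% interval -1.40 to 0.17, limma adjusted p = 0.237). Without the whole mouse array it was 0.02 (adjusted p = 0.908), so the slope rested on that array.

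The dimmer Slc12a1 probe set, 1421390_at, had 4.36, 4.12, 4.11, 4.39 and 4.49, inside the range of the controls. Its lowest signal was at 50% colon and its highest in colon. The slope was 0.20 log2 (SE 0.19, limma adjusted p = 0.531). The 2 probe sets thus had slopes of opposite sign, and neither passed.

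Neither podocyte gene passed. Nphs1, which encodes nephrin of the slit diaphragm, had log2 signals of 6.22, 6.13, 6.02, 6.20 and 6.28 from 0% to 100% colon, a range of 0.25 over the 5 arrays. Its level was above the controls, between the 35.7th and the 39.7th percentile, with the lowest signal at 50% colon. The slope was 0.08 log2 (SE 0.14, 95% interval -0.28 to 0.43, limma adjusted p = 0.759). For the signal of this probe set, the interval excludes a fall of the size fitted for Umod 1456306_a_at, Cubn or Slc34a1. Whether that signal follows the nephrin transcript was not tested.

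Wt1, a zinc finger transcription factor that podocytes keep making throughout life, had 5.22, 5.03, 4.92, 4.79 and 5.24. The signal was lower at each step down to the 75% mixture, and colon was level with whole mouse. Wt1 lay inside the range of the Bacillus controls on the whole mouse, 25% and 75% arrays and just above its top on the other arrays, so its slope is a poor measure of the transcript. The slope was -0.09 log2 (SE 0.23, 95% interval -0.69 to 0.52, limma adjusted p = 0.845). Without the colon array it was -0.57 (adjusted p = 0.103), and without the whole mouse array 0.19 (adjusted p = 0.729), so its sign rested on single arrays.

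Signals of Nphs1 and of both Slc12a1 probe sets were lowest at 50% colon. The median of the Bacillus controls was also lowest there, at 3.24 log2, with 3.54, 3.38, 3.43 and 3.43 at 0%, 25%, 75% and 100% colon. The part of this shift in the values of the dim probe sets was not tested.

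**Figure D2:**
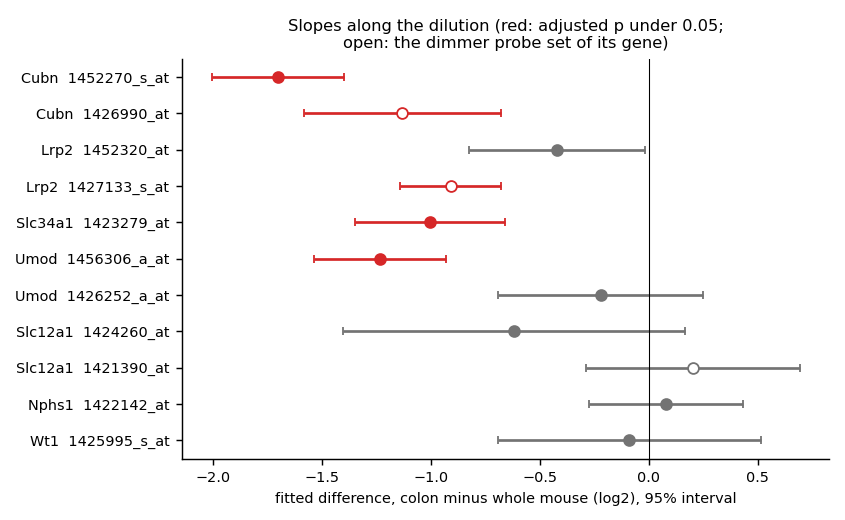
Slope in log2, positive where colon is higher (horizontal axis), with its 95% interval from limma for each of the 11 probe sets of the 7 genes (rows). The 5 red points passed the adjusted threshold and all lie below 0, from -1.70 for Cubn to -0.91 for the dimmer Lrp2 probe set; the intervals of Nphs1, Wt1, Slc12a1 and Umod 1426252_a_at span 0.

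The slopes ordered the genes from Cubn (-1.70) through Umod 1456306_a_at (-1.23), Slc34a1 (-1.003), Slc12a1 (-0.62) and Lrp2 (-0.42) to Umod 1426252_a_at (-0.22), Wt1 (-0.09) and Nphs1 (0.08). The 95% intervals of all neighbours in this order overlapped, and that of Cubn lay wholly below that of Slc34a1.

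Because the shares are known, each mixture can be set against the share-weighted mean of the linear signals of the undiluted arrays. Umod 1456306_a_at kept close to it, with log2 deviations of 0.02, 0.03 and -0.02 at 25%, 50% and 75% colon. Read as a gauge of the mix, its signals gave colon shares of 23.4%, 47.7% and 76.2%. Cubn 1452270_s_at lay below the line, by -0.05, -0.11 and -0.26, and gave shares of 29.5%, 57.0% and 87.1%. The dimmer Cubn probe set, 1426990_at, deviated by 0.22, 0.14 and -0.07 and gave shares of -3.83%, 34.8% and 80.5%. Slc34a1 was above it at 25% colon by 0.16, where it gave a share of 4.44%, and close to it at 50% and 75% (-0.02 and 0.04), with shares of 52.0% and 71.1%. Over all probe sets the standard deviation of this deviation was 0.25, 0.23 and 0.18 log2. These deviations were smaller than that except for Cubn 1452270_s_at at 75%.

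Slc12a1 1424260_at departed most at 25% and 50% colon, and Wt1 at 75%. The deviations of Slc12a1 were -0.60, -0.51 and -0.25 at 25%, 50% and 75% colon. Wt1 deviated by -0.19, -0.32 and -0.44, and Nphs1 by -0.10, -0.22 and -0.06. The brighter Lrp2 probe set lay above the line, by 0.24, 0.08 and 0.18. Over all probe sets the median deviation was -0.05, -0.08 and -0.06.

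**Figure D3:**
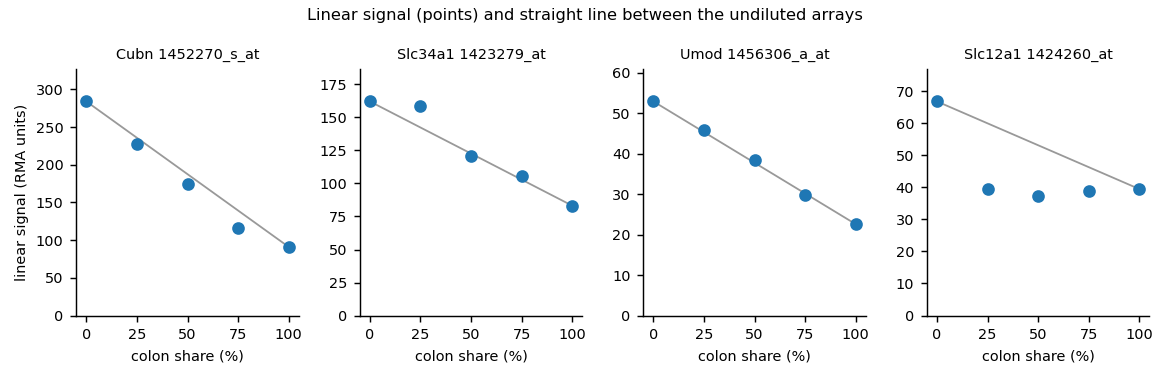
Linear signal in RMA units (vertical axis, from 0) against colon share in percent for 4 probe sets; points are arrays and the line joins the undiluted arrays. Umod keeps to the line, Cubn falls below it at 75% colon, Slc34a1 lies above it at 25%, and Slc12a1 is at 39.5 or below on the 4 arrays that hold colon RNA and at 66.8 in whole mouse.

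The wider lists of nephron genes held more genes that fell than genes that rose. Of 144 genes of 8 kidney lists that were on the array, 40 fell (27.8%) and 11 rose (7.64%), where 14.5% of all named genes fell and 9.80% rose. Their median slope was -0.25 log2, beside -0.01 over all genes. Without the 7 genes above, 37 of 137 fell and 11 rose. Many of these genes are also made by other organs of the newborn, and how much of each count comes from kidney was not tested.

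Proximal tubule genes held 13 that fell and 4 that rose among 31, with a median of -0.50 log2. Besides Cubn and Slc34a1, the largest falls were those of Fbp1, a gluconeogenic enzyme (-4.57, adjusted p = 0.0345), Ttc36 (-3.24, adjusted p = 0.0061) and Slc27a2, which activates and imports fatty acids (-3.16, adjusted p = 0.0217). All 3 are also made by liver. The 4 that rose were Slc13a1 (2.60), a sulfate transporter, Hnf4a (2.28), a transcription factor of kidney, liver and gut, the amino acid transporter subunit Slc3a1 (1.01) and the bicarbonate transporter Slc4a4 (0.64). The 4 probe sets of Slc4a4 had slopes between -0.14 and 0.64. Pck1, another gluconeogenic enzyme and the brightest gene that did not pass, had 9.51 in colon and 9.72 in whole mouse (adjusted p = 0.167). Its 2 probe sets had slopes of -0.23 and 0.82.

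Partners of megalin and cubilin were mixed. Of 17 genes 5 fell and 1 rose, with a median of -0.26 log2. Besides Cubn itself, the genes that fell were Amn, or amnionless, which carries cubilin to the cell surface (-1.55, adjusted p = 0.0195), and Dab2, the adaptor that links megalin to clathrin (-1.63, adjusted p = 0.0189). The folate receptor Folr1 (-2.29, adjusted p = 0.0042) and the retinol carrier Rbp4, a megalin ligand made chiefly by liver (-2.73, adjusted p = 0.0129), fell too. Myo6, a motor of the brush border, rose (1.71, adjusted p = 0.0467). Lrpap1, the chaperone of megalin, lay between 10.87 and 10.98 (adjusted p = 0.698), and its 4 probe sets had slopes between -0.50 and 0.53.

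Among 17 genes of the thick ascending limb 3 fell and 1 rose, with a median of -0.17 log2. The share that fell, 17.6%, was near that of all named genes. Apart from Umod, Sostdc1, a secreted inhibitor of Wnt and BMP signals (-2.80, adjusted p = 0.0065), and the patterning factor Irx2 (-1.17, adjusted p = 0.0151) fell. The prostaglandin receptor Ptger3 rose (0.99, adjusted p = 0.00788), although its other probe set had a slope of -0.08. The potassium channel Kcnj1, which works with Slc12a1 and was picked after its values were seen, had 5.37 in colon and 5.77 in whole mouse (adjusted p = 0.151). The calcium sensor Casr had 7.42 in colon and 7.37 in whole mouse (adjusted p = 0.904).

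In the podocyte list the share of genes that fell was near that of the array. Of 20 genes 3 fell (15.0%) and 2 rose (10.0%), with a median slope of 0.03 log2. The cell cycle inhibitor Cdkn1c (-3.94, adjusted p = 0.036), the matrix protein Npnt (-2.93, adjusted p = 0.00752) and the surface sialomucin Podxl (-0.75, adjusted p = 0.0295) fell, and each is widely made outside the kidney. The 5 probe sets of Npnt had slopes between -3.24 and 0.25, and the 2 of Podxl had -0.75 and 0.06. Plce1, a phospholipase (1.14, adjusted p = 0.00605), and the actin crosslinker Actn4 (0.61, adjusted p = 0.0361) rose. Cd2ap, an adaptor that binds nephrin, had 9.68 in colon and 7.80 in whole mouse (adjusted p = 0.0622).

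Further along the nephron, distal tubule genes held 3 falls and 1 rise among 10, and collecting duct genes 4 (21.1%) and 1 among 19. Falls outnumbered rises in the collecting duct list, yet its summed linear signal was 6494 in colon and 3280 in whole mouse. In the distal list the calcium-binding proteins Pvalb (-2.68) and Calb1 (-1.71) fell, with Fgf13 (-1.22), and Pvalb is also made by fast skeletal muscle. The 1 gene that rose was Wnk4 (1.13, limma adjusted p = 0.0326). The 2 probe sets of Calb1 had slopes of -1.71 and 0.08, and the 2 of Fgf13 had -1.22 and 0.07. Wnk1, a kinase that controls salt transport, lay between 10.55 and 10.87 (adjusted p = 0.185). In the collecting duct list Slc4a1, also the anion exchanger of red cells (-4.01), Calb1 and the water channel Aqp3 (-1.67) were the largest falls, and the sodium channel subunit Scnn1a rose (1.02, adjusted p = 0.0104). The 3 probe sets of Slc4a1 had slopes between -4.01 and -0.06. Larger positive slopes that missed the threshold, picked after their values were seen, were those of the water channel Aqp4 (3.95, adjusted p = 0.0652), the steroid enzyme Hsd11b2 (3.56, adjusted p = 0.0617) and Fxyd4, a regulator of the sodium pump (2.47, adjusted p = 0.075). The transcription factor Tfcp2l1 had 11.38 in colon and 7.85 in whole mouse (adjusted p = 0.0697), and its 3 probe sets had slopes between -0.09 and 3.15.

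Genes of kidney formation and of renal hormones also held more falls than rises, as did all named genes (14.5% fell and 9.80% rose). Of 26 genes of nephron progenitors and development 7 fell (26.9%) and 1 rose (3.85%). Their median slope was -0.05 log2, near the -0.01 over all genes. The proteoglycan Gpc3 (-2.78), Wnt4, which turns progenitors into epithelium (-2.58), and the kidney cadherin Cdh16 (-2.12) led the falls. Gdnf was the 1 gene that rose (0.67, limma adjusted p = 0.0425). Wnt7b had 8.15 in colon and 9.15 in whole mouse (adjusted p = 0.0906). Six2, a transcription factor that maintains nephron progenitors and was picked after its values were seen, had 6.72 on both undiluted arrays (adjusted p = 0.988). Of 9 renal hormone and vessel genes 4 fell (44.4%) and none rose, led by the angiotensin receptor Agtr2 (-3.64), the parathyroid hormone receptor Pth1r (-2.72) and angiotensinogen, Agt (-1.88). The angiotensin-converting enzyme Ace had 7.86 in colon and 8.72 in whole mouse (adjusted p = 0.0544).

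**Figure D4:**
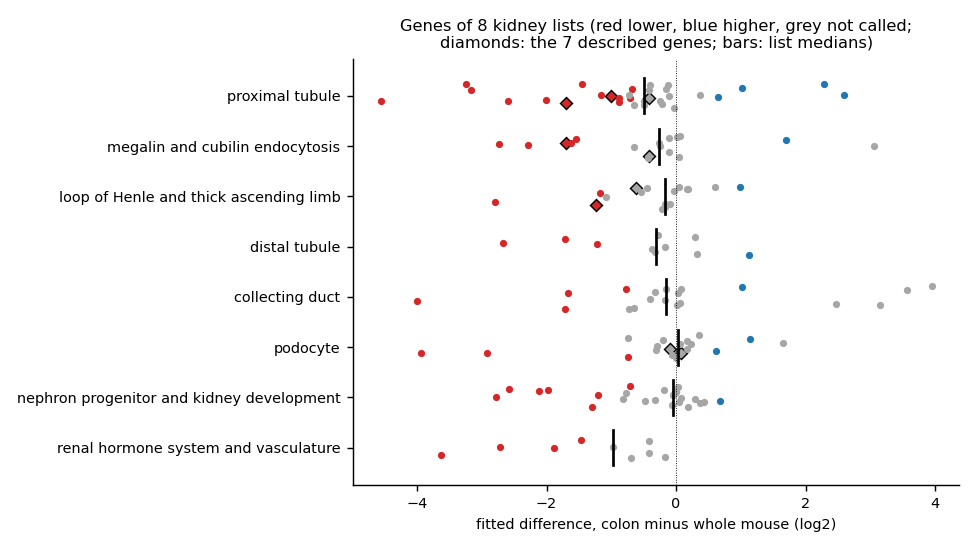
Slope in log2, positive where colon is higher (horizontal axis), of each gene's brightest probe set in 8 kidney lists (rows); red fell, blue rose, grey did not pass, diamonds mark the 7 described genes and black bars the list medians. The medians run from -0.98 for the renal hormone and vessel list to 0.03 for the podocyte list.

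Genes of other tissues that make some of the 7 genes were counted in the same way, and 14.5% of all named genes fell and 9.80% rose. In lung epithelium, a site of megalin, 5 of 10 genes fell and none rose, and their summed linear signal was 1495 in colon and 12856 in whole mouse. Mesothelium, a site of Wt1, had 3 falls and 1 rise among 9 genes. Gpm6a (-3.83), Msln (-2.59, limma adjusted p = 0.0042) and Upk3b (-1.16) fell, and Cldn15 rose (3.03, limma adjusted p = 0.0475). The summed signal of the mesothelium list ran the other way from these counts, with 14475 in colon and 2109 in whole mouse. Most of the colon sum came from the keratin Krt19, which colon epithelium also makes (13.56 log2 in colon and 9.71 in whole mouse, limma adjusted p = 0.108). In gonad, another site of Wt1, 3 of 16 genes fell (18.8%) and none rose, with a summed signal of 879 in colon and 1538 in whole mouse. Ileum epithelium, a site of cubilin, had 3 falls, among them Cubn itself, and 4 rises among 11 genes. Its sum was 11834 in colon and 20327 in whole mouse, and this direction rested on the apolipoprotein Apoa1. Apoa1 gave most of the whole mouse sum (5.46 log2 in colon and 13.66 in whole mouse, limma adjusted p = 0.0948). Of 5 thyroid genes 1 fell and 1 rose, with a sum of 542 in colon and 486 in whole mouse. Of 8 genes of choroid plexus and brain ventricle 2 fell and none rose, with a sum of 1360.2 in colon and 8681 in whole mouse. Most of each sum came from Ttr (10.08 log2 in colon and 12.98 in whole mouse). In bladder urothelium 1 of 5 fell and none rose, and the sum was 8861 in colon and 4853 in whole mouse. Most of the colon sum came from the keratin Krt20, also on the colon epithelium list (13.02 log2 in colon and 7.86 in whole mouse). Most of the whole mouse sum came from the keratin Krt5 (6.58 in colon and 12.00 in whole mouse). The shares that fell in gonad, thyroid and bladder urothelium were near that of the array. The part of these tissues in the signals of Cubn, Lrp2 and Wt1 was not tested.

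Markers of colon epithelium were higher in sum in colon, with a summed linear signal of 97340.5 in colon and 10532 in whole mouse. Of 15 colon epithelium genes 3 rose and none fell, where 9.80% of all named genes rose. All 15 slopes were positive, from 0.39 to 5.96 log2, so the 12 that did not pass cannot be read as level. The steepest, Car1, missed the threshold (limma adjusted p = 0.174) and was picked after its values were seen. Its log2 signal climbed from 6.62 without colon RNA to 13.73 by the 25% mixture, and undiluted colon reached 14.02. Its course was thus far from a straight line, and the test counts such a bend as error. The intestinal factor Cdx2, which rose, had 10.77 in colon and 7.38 in whole mouse.

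The genes whose course over the 5 arrays was most like that of each member were found by the root mean square difference of mean-centred log2 signals among 12392 other genes. Fam20c (0.03) and Crtap (0.05) were closest to Cubn, Npr2 (0.04) and Tubb6 (0.05) to Umod 1456306_a_at, and Eml3 (0.03) and Ccl25 (0.04) to Slc34a1. Ppp1ca (0.03) and Slc37a4 (0.03) were closest to Lrp2, and Vax2 (0.03) and Apobr (0.03) to Slc12a1. Wt1 was nearest to Rara (0.04) and Plcb1 (0.05), Umod 1426252_a_at to Armcx1 (0.02) and Cyp39a1 (0.02), and Nphs1 to Tex13b (0.01) and Slain1 (0.01). Likeness was commonest for the flattest gene: 2472 genes lay within 0.1 log2 of Nphs1, against 48 within that distance of Cubn.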

How the data were processed

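Per the labels' protocols, 10 ng of total RNA of each mix was amplified by T7 in vitro transcription in 2 rounds and hybridised to Affymetrix mouse arrays. The authors deposited a table of 22690 probe sets on the log2 scale that came from RMA, per the submitters' processing notes, with a version not given in the sources used here. RMA normalizes the arrays together, so an array's values depend on the others. The 64 control probe sets were left out and 22626 were tested with no filter on signal. A single gene was annotated to 20380, more than 1 gene to 691, which stayed unnamed, and no gene to 1555. Symbols were updated through gene identifiers in RefSeq's GRCm38.p6 table, which matched 20351.

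A line in colon share (0 to 1) was fitted to the log2 signals of the 5 arrays by limma (version 3.58.1, R version 4.3.3; eBayes, 3 residual degrees of freedom, 2-sided, Benjamini-Hochberg over all probe sets, threshold 0.05), and the fit was tested on simulated data. The p-values measure technical spread and any bend from a straight line, not spread between mice. The members and the 16 gene lists were chosen with earlier results of these data known. Each list gene is represented by its brightest probe set, and slopes of its other probe sets are given for some genes only. Named genes of the 8 kidney lists are the 3 largest changes that passed and the brightest that did not, in each list. Others were named where a count was small, though not every gene of a small count is named, or were picked after their values were seen, as stated. From the 8 other lists, the genes named were those that gave most of a sum, the mesothelium genes that fell or rose, and Car1 and Cdx2. The 2 genes most like each member were also named. Alternatives were array centring, a signal filter, another variance prior, linear signals, each array left out, and probe sets averaged per gene.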

Additional observations from a re-analysis of the deposited data

How the results depend on the processing

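With 1 array per mix there is no replicate error, and RMA signals carry no detection call, so falls into the range of the Bacillus controls leave the size of a difference inexact. Of 180 recomputed values, 141 were classed as unchanged, 25 as weaker, 4 as stronger, 5 as moved and 5 as reversed. The unchanged class allowed small shifts, among them 2 member falls in place of 3 without the 75% mixture. It also held the undiluted difference of Umod 1426252_a_at, which went from -0.04 to 0.03 with arrays centred. Leaving out each array in turn gave slopes of -1.37 to -1.10 for Umod 1456306_a_at and -1.19 to -0.89 for Slc34a1. Those of Slc12a1 1424260_at ran from -0.97 to 0.025, those of Nphs1 from -0.057 to 0.25 and those of Wt1 from -0.57 to 0.19, crossing 0. The count of members that fell was 1 to 3 in these fits, 1 being the count without the colon array. The kidney list count ran from 17 to 29 falls and from 2 to 6 rises, and that over all probe sets from 829 to 1692 and from 168 to 1306. The lowest of each were without the colon array and the highest without the 25% mixture; without the whole mouse array, the 50% or the 75% mixture 23 kidney list genes fell in each fit. Each such fit has fewer degrees of freedom. With arrays centred on their medians 17 kidney list genes and 3148 probe sets rose, against 11 and 1953 as deposited. Averaging a gene's probe sets gave slopes of -0.73 for Umod, -0.66 for Lrp2, past the threshold, and -0.21 for Slc12a1, whose dimmer probe set alone had 0.20. The undiluted differences became -0.64 for Umod, -1.33 for Cubn, -0.65 for Lrp2 and -0.32 for Slc12a1. With the filter on signal only Cubn and Slc34a1 among the 8 were left to test, and both fell. No paired analysis was possible because each mix has 1 array and the labels give no replicate numbers.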
